A study of Mus musculus with 7 samples.

Results

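The receptors for GABA, glycine and glutamate were described in embryonic mouse neurons sorted from the arcuate nucleus of the hypothalamus, a region that controls feeding. The genes were chosen by symbol alone: GABA-A, GABA-B and glycine receptor subunits, AMPA, kainate, delta and NMDA glutamate receptor subunits, and metabotropic glutamate receptors. The deposited table held 48 of them among 18331 genes with a unique symbol. Gabra6, Gabrp, Gabrr3 and Grm6 were not analysed here.

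The study compared Pomc neurons with Npy neurons of E15.5 embryos. The labels name no treatment, strain, genotype or sort reporter, nor whether embryos were pooled. Cells of dissected arcuate nuclei were purified by fluorescence-activated sorting, and total RNA, 1 ng per library, went into a stranded total RNA kit. Pomc neurons had 4 libraries and Npy neurons 3, but Npy replicate 3 was left out: in all 15223 genes above 0 in either of the others it was their mean times a whole percent. The labels do not tie replicates to separate litters, and the tests therefore reflect a spread among libraries that may be technical.

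GABA-A and glycine receptors are chloride channels built from a ring of subunits, and the choice of alpha, beta and gamma subunit sets where the channel sits and how it responds to GABA. In immature neurons internal chloride is often high, so that GABA can depolarize the cell. The balance of the chloride transporters KCC2 and NKCC1 shifts this as neurons mature. AMPA, kainate and NMDA receptors are cation channels opened by glutamate. NMDA receptors need the subunit GluN1, and early in development GluN2B and GluN3A accompany it. GABA-B and metabotropic glutamate receptors act through G proteins. Adult Pomc and Npy neurons are both under GABA and glutamate control, which adjusts their firing with feeding state.

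Values were taken as TPM, a transcript abundance scaled by gene length and library total. The unit is inferred from the values, and levels, shares and ratios between genes rest on that reading. Values are given for Pomc replicates 1, 2, 3 and 4 and then for Npy replicates 1 and 2. Short structural RNAs took 10.8 to 13.3% of the total in Pomc libraries against 14.2 and 17.5% in Npy libraries. Genes above 0 numbered 12493 to 14933 per library used, and TPM keeps no read depth, so no counting interval is given. Pomc itself ranged over 352 to 770 TPM in Pomc neurons against 24.0 and 59.4 TPM in Npy neurons, whereas Npy stood at 2.11 to 152 and at 728 and 513. Agrp, the other peptide of mature Npy neurons, was at or under 6.82 TPM in every library. The 11 pan-neuronal markers were above 0 in all 6 libraries. Their sum was 5489 to 6699 TPM in Pomc neurons against 4886 and 3974 TPM in Npy neurons, without overlap. Within that sum Tubb3 alone was at 1603 to 2346 TPM against 1094 and 1439. By limma 0 of the 11 passed, and 4, Tubb3, Stmn2, Elavl3 and Elavl4, had an unadjusted p below 0.05. All 4 had higher values in Pomc neurons (4.08% of all tested genes had such a p in this direction). Snap25, Syt1 and Rbfox3 had log2 fold changes below 0, of -0.26, -0.30 and -0.05. Markers of other cells moved with the groups. The summed level of 8 oligodendrocyte precursor markers was 61.8 to 84.8 TPM in the Pomc libraries against 285 and 247 TPM in the Npy libraries, 6 of the 8 passed as higher in Npy neurons by limma, and Olig2 and Cspg4 were listed at 0 in all Pomc libraries. Summed over 6 markers of ventromedial nucleus neurons, the level was 286 to 438 TPM in the Pomc libraries against 28.7 and 20.7 TPM in the Npy libraries. Of the 6, 3, Nr5a1, Sox14 and Adcyap1, passed as higher in Pomc neurons by limma (0.289% of all tested genes did). Adcyap1 was listed at 0 in both Npy libraries and so entered the test through the Pomc libraries. Nkx2-2 and Fezf2 had log2 fold changes below 0, of -0.38 and -0.61, with overlap. Sst and Ghrh, peptides of other arcuate neurons, were higher in Npy neurons, at 2108 and 3187 TPM and at 96.8 and 112 TPM, against at most 653 and 0.296 TPM in Pomc neurons. Glial and dividing-cell markers leaned towards Npy neurons without passing, with log2 fold changes below 0 in 7 of 11 and 7 of 8 tested. Of the radial glia, astrocyte and tanycyte markers, 3 had an unadjusted p below 0.05 by limma with higher values in Npy neurons. Glul had such a p the other way, at 68.2 to 86.5 TPM in Pomc neurons against 51.9 and 54.3 TPM. Of the dividing-cell markers, 3 had such a p with higher values in Npy neurons, and none the other way. Fabp7 was at 323 and 176 TPM in Npy neurons against 1.61 to 61.6 TPM, and Ccnb1 at 15.2 and 13.0 TPM against 0 to 3.73 TPM. The sums of both lists overlapped between the groups, at 370.2 to 747 TPM against 703 and 490.2 TPM and at 37.6 to 92.9 TPM against 141 and 67.8 TPM. Of 8 microglial markers, 2 were listed at 0 in all 6 libraries, and the sum over all 8 reached 62.2 TPM in Pomc replicate 4, with 8.30 to 10.5 TPM elsewhere. The part of these cells and of the short RNA share in the receptor values was not tested. In these bulk samples fewer cells of a type and less RNA per cell cannot be told apart.

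The libraries of both groups held a broad set of receptor transcripts at this age. Of the 48 genes, 36 were above 0 in all 6 libraries, 28 averaged at least 10 TPM and 6 averaged at least 100 TPM. Among these 6 were Gabbr1, Grik5, Gria2, Gria1 and Gabra5. Listed at 0 in every library were Gabrr1, a rho subunit of retinal type GABA receptors, the glycine receptor subunits Glra3 and Glra4, and the NMDA receptor subunit Grin3b. The whole annotated span of Glra4, 25627 bases, is shared with the RNA BC065397, which was at 2.58 to 13.8 TPM. How reads from these bases were assigned is not known. Gabrd, the delta subunit of extrasynaptic receptors, reached 1.88 TPM in Npy replicate 1 and was listed at 0 elsewhere. Grin2c did not exceed 0.182 TPM, and Gabrr2 had a value in Pomc replicate 1 only, at 1.29 TPM. These 7 genes missed the filter of 1 TPM in at least 2 libraries, which left 41 for the test.

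**Figure D1:**
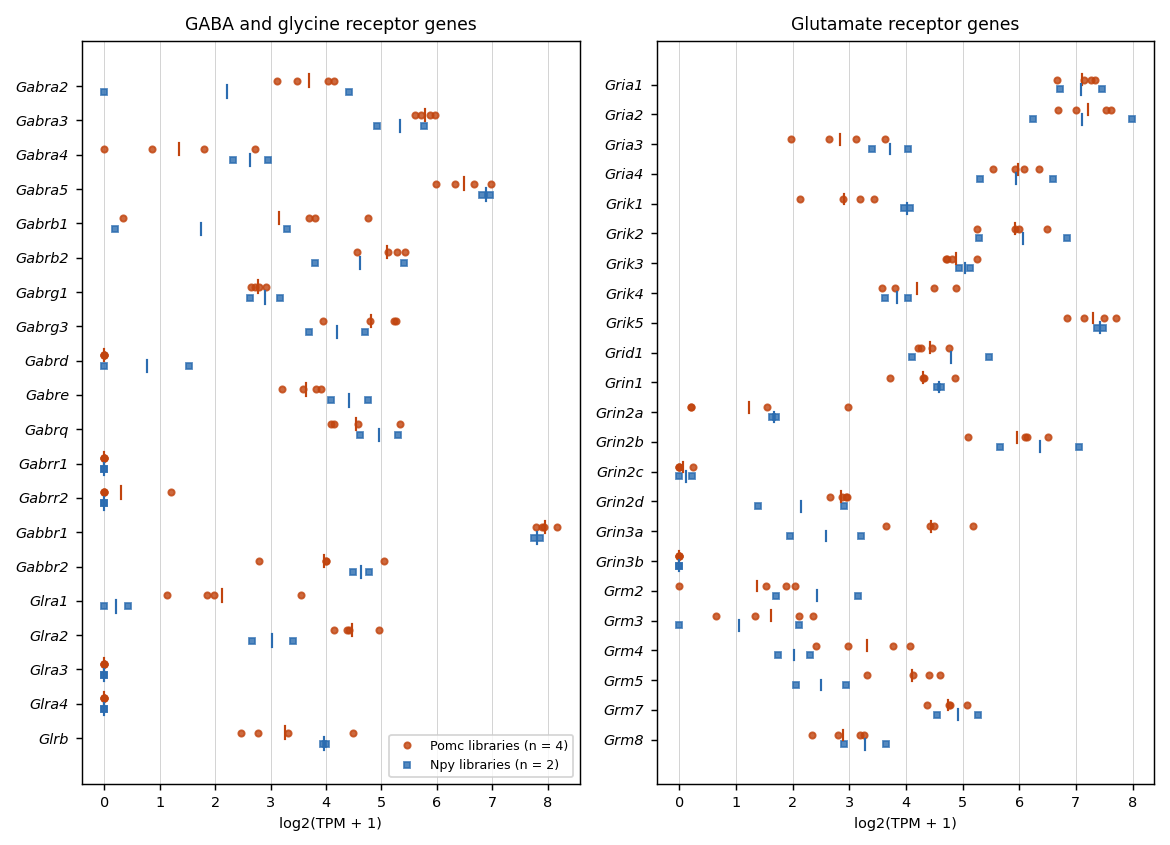
Level of 43 receptor genes on log2(TPM + 1), with 1 point per library: circles are the 4 Pomc libraries, squares the 2 Npy libraries, and short vertical lines the group means on this scale. Gabbr1, Grik5, Gria1 and Gria2 lie to the right in both groups, and Glra2, Grin3a and Grm5 have every Pomc circle to the right of both Npy squares.

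No receptor gene passed the threshold between Pomc and Npy neurons. By limma on log2(TPM + 1), with p-values adjusted over all 13845 genes tested, 0 of 41 had an adjusted p below 0.05, where 0.412% of all tested genes did (0.289% with Pomc neurons higher and 0.123% with Npy neurons higher). The smallest adjusted p among them was 0.426 by limma. At an unadjusted p below 0.05 there were 4, Grin3a, Glra2, Grm5 and Glra1, all with higher values in the Pomc libraries. That is 9.76% of the 41, against 7.36% of all tested genes in either direction, 4.08% in this one and 3.28% in the other. Glra1 reached 1 TPM in the Pomc libraries only. It thus entered this count, and the next count of groups without overlap, through the group in which it was higher. In 8 of the 41 the groups did not overlap (19.5%, against 15.9% of all tested genes), 6 with the Pomc libraries higher (background 8.05%) and 2 with the Npy libraries higher (background 7.86%). The median log2 fold change (Pomc minus Npy) was 0.03 over the 41 and 0.02 over all tested genes, and 22 were above 0 and 19 below. The median absolute log2 fold change was 0.45 and 0.34.

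The intervals were wide for most of these genes. The 95% interval of the log2 fold change lay within 1 unit of 0 (a 2-fold difference on this scale) for 7 of the 41 (17.1%, against 30.5% of all tested genes), among them Gabbr1, Gria1, Gria4, Grik3, Grik5 and Grm7. It passed 1 unit on a single side in 30 genes and on both sides in 4. For Gabbr1 it ran from -0.25 to 0.53 and for Gria1 from -0.60 to 0.62. For Gabrb1, the widest, it ran from -1.47 to 4.27.

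**Figure D2:**
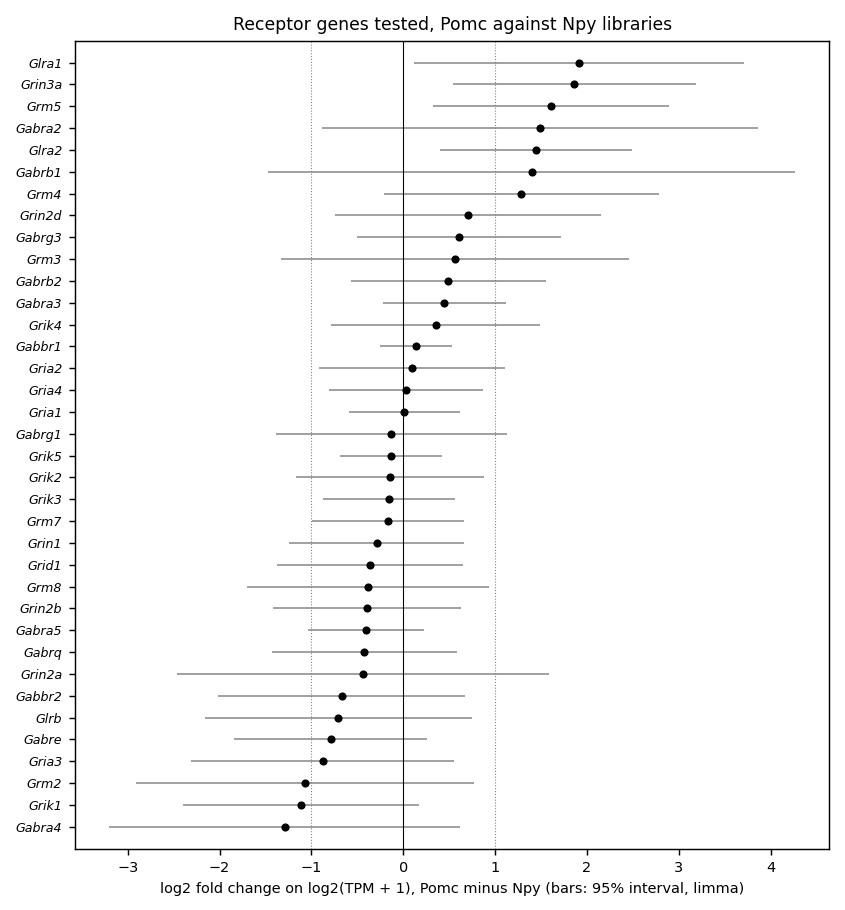
Log2 fold change of 36 tested receptor genes on log2(TPM + 1), Pomc minus Npy, with bars for the 95% interval of the limma fit and dotted lines at 1 unit on either side of 0. The intervals of 4 genes, Glra1, Grin3a, Grm5 and Glra2, lie wholly above 0 before adjustment, and none lies wholly below.

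Among the GABA-A receptor alpha subunits, which carry the GABA site together with beta, the embryonic subunit Gabra5 was the most abundant. Gabra5 (chromosome 7, 57407669 to 57591016, GRCm38.p6) was measured at 125, 62.2, 79.5 and 100.3 TPM in Pomc neurons against 112 and 124 TPM in Npy neurons. It made up 49.6 to 78.1% of the summed alpha transcripts of a library. The groups overlapped, and Pomc replicate 2 was the lowest. Gabra3, another subunit typical of developing brain, followed at 61.6, 51.4, 47.9 and 57.6 TPM against 53.3 and 29.3. Its share of the alpha transcripts was 28.6 to 41.0% in the Pomc libraries and 27.1 and 18.4% in the Npy libraries, so the shares did not overlap while the levels did.

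Other alpha subunits were lower. Gabra2 stood at 15.47, 7.70, 10.1 and 16.7 TPM in the Pomc libraries, at 20.3 TPM in Npy replicate 1 and was listed at 0 in Npy replicate 2. Its log2 fold change of 1.49 ± 1.05 (SE) turned to -0.71 without that library. Gabra4, found with the delta subunit in adult thalamus and hippocampus, stood at 2.48, 0, 5.55 and 0.818 TPM against 6.77 and 3.97, with overlap through Pomc replicate 3.

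Beta subunits complete the GABA site and are needed for assembly. Gabrb2, the main adult beta subunit, stood at 33.7, 22.7, 37.8 and 41.8 TPM in Pomc neurons against 41.3 and 13.0 TPM in Npy neurons, with Npy replicate 2 the lowest library and Npy replicate 1 within the Pomc range. Gabrb1 varied widely within each group, at 26.1, 0.258, 13.0 and 11.9 TPM against 8.80 and 0.147. Pomc replicate 2 and Npy replicate 2 were near 0 in Gabrb1, and its log2 fold change of 1.40 ± 1.27 turned to -0.15 without Npy replicate 2.

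Gamma subunits anchor the receptor at synapses. Gabrg3 stood at 36.3, 14.3, 37.4 and 26.7 TPM in Pomc neurons against 25.2 and 11.9 TPM in Npy neurons, with overlap. Gabrg1 was even, at 5.19 to 7.95 TPM over the 6 libraries.

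Hypothalamus is among the few regions that express the theta and epsilon subunits, and both were present. Gabrq (theta) was measured at 16.1, 22.7, 16.7 and 39.5 TPM in Pomc neurons against 38.5 and 23.5 TPM in Npy neurons. Gabre (epsilon) was measured at 14.0, 8.22, 10.99 and 13.2 TPM against 15.9 and 26.1, so both Npy libraries were above every Pomc library (log2 -0.79 ± 0.47, limma adjusted p = 0.792).

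Many GABA-A subunit genes sit in genomic clusters, which the symbols alone do not show. On chromosome X (72256926 to 72842607), Gabre, Gabra3 and Gabrq summed to 75.6 to 110.2 TPM against 79.0 and 108. The chromosome 5 cluster (70751047 to 72149572; Gabrg1, Gabra2, Gabra4 and Gabrb1) held 13.3 to 50.6 TPM against 9.31 and 43.8. In both clusters the summed levels of the groups overlapped. Gabra4 and Gabrb1 share 388 annotated bases at their starts. The kit marks strand, but no source used here says whether counting used it, and reads from the shared bases may be split between these genes.

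GABA-B receptors work as a pair of GABBR1, which binds GABA, and GABBR2, which couples to the G protein. Gabbr1 (chromosome 17, 37045966 to 37074305) was the most abundant of all 48 genes, at 286, 219.6, 243 and 238 TPM in Pomc neurons against 231 and 215 TPM in Npy neurons. Gabbr2 (chromosome 4, 46662318 to 46991714) was measured at 32.2, 5.93, 14.96 and 15.002 TPM against 26.4 and 21.4. The partner was thus 8.72 to 37.0 times less abundant than Gabbr1 in every library, with the highest ratio in Pomc replicate 2.

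Glycine receptors of the embryo are largely built from the alpha2 subunit, and its gene was among the 4 with the lowest p. Glra2 (chromosome X, 165129017 to 165327867) was measured at 29.9, 16.7, 19.9 and 20.4 TPM in Pomc neurons against 9.53 and 5.31 TPM in Npy neurons. Every Pomc library was above both Npy libraries. The log2 fold change was 1.45 ± 0.46 (SE; 95% interval 0.40 to 2.50), and it did not pass the threshold (limma unadjusted p = 0.0119, adjusted p = 0.441). Over the 15 alternative settings it ranged from 1.08 to 1.82.

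Glra1, the adult alpha subunit of spinal cord and brainstem, was low, with higher values in the Pomc libraries, at 10.7, 1.19, 2.60 and 2.93 TPM against 0.341 and 0. Pomc replicate 1 stood apart from the other Pomc libraries. Glra1 reached 1 TPM in the Pomc libraries only, so it entered the test through the group in which it was higher (log2 1.91 ± 0.80, limma unadjusted p = 0.0392, adjusted p = 0.637). Glrb, which anchors the receptor to the scaffold protein gephyrin, stood at 8.96, 5.83, 4.55 and 21.4 TPM against 14.4 and 14.96, with overlap through Pomc replicate 4. The ratio of summed alpha to Glrb transcripts was 1.09 to 4.94 in the Pomc libraries and 0.684 and 0.355 in the Npy libraries, without overlap. This ratio was chosen with the values known and was given no test.

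Among the glutamate receptor channels, AMPA receptor transcripts summed to 315 to 434 TPM in Pomc neurons against 538 and 227 TPM in Npy neurons. Gria1 and Gria2, the AMPA receptor subunits GluA1 and GluA2, together held most AMPA receptor transcripts. Gria2, whose product makes AMPA receptors poorly permeable to calcium once edited, stood at 101, 195, 185 and 126 TPM in Pomc neurons against 253 and 74.4 TPM in Npy neurons. The Npy libraries lay on either side of the whole Pomc range, and the log2 fold change of 0.09 ± 0.45 turned to -0.78 without Npy replicate 2 and to 0.97 without Npy replicate 1. Gria1 stood at 141, 100.1, 160 and 152 TPM against 175 and 104.6, with a log2 fold change of 0.01 ± 0.27 whose sign turned in 8 of the 15 alternatives, both rescalings included. Gria4 held 13.9 to 21.3% of the AMPA transcripts and Gria3 0.890 to 4.23%.

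The kainate receptor family was led by Grik5, whose product needs another kainate subunit to form a channel. Grik5 (chromosome 7, 25009849 to 25075694) was measured at 140, 207, 180.2 and 114 TPM in Pomc neurons against 178 and 166 TPM in Npy neurons, or 48.1 to 63.6% of the kainate transcripts. Grik2 stood at 37.4, 89.5, 62.7 and 59.97 TPM against 115 and 38.0, with Npy replicate 1 the highest and Npy replicate 2 the second lowest library. Grik3 and Grik4 held 8.78 to 11.4% and 3.10 to 11.97% of the kainate transcripts, with overlap between the groups. Grik1 was the kainate gene with the largest difference, at 3.40, 6.40, 9.80 and 8.12 TPM against 14.7 and 15.9. Both Npy libraries were above every Pomc library in Grik1 (chromosome 16, 87895901 to 88290863), with a log2 fold change of -1.11 ± 0.57 (95% interval -2.40 to 0.17, limma adjusted p = 0.754). Its share of the kainate transcripts, 1.496 to 3.41% against 4.13 and 6.10%, did not overlap either.

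Delta receptors are synaptic adhesion partners of cerebellin. Grid1 stood at 26.2, 18.2, 17.6 and 21.03 TPM in Pomc neurons against 43.3 and 16.2 TPM in Npy neurons. The groups overlapped, with Npy replicate 1 the highest and Npy replicate 2 the lowest library.

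Grin2b, the GluN2 subunit typical of embryonic neurons, led the NMDA receptor genes that set channel kinetics. It was measured at 90.2, 33.4, 69.2 and 67.8 TPM in Pomc neurons against 132 and 49.9 TPM in Npy neurons, and held 82.9 to 93.6% of the GluN2 transcripts. Grin2a, which replaces it after birth in many neurons, held at most 8.39%, and Grin2d held 5.42 to 16.8% in Pomc neurons against 4.66 and 3.03%. Grin1 (chromosome 2, 25291177 to 25319187), whose product is part of every NMDA receptor, stood lower than Grin2b in every library, at 28.2, 12.1, 18.7 and 18.9 TPM against 23.7 and 22.5. Grin2b thus exceeded Grin1 by 2.22 to 5.56 times. Part of the Grin1 locus, 7403 bases, is shared with the annotated RNA Grin1os, which was at or under 3.67 TPM.

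Grin3a had the lowest p of all receptor genes. It encodes GluN3A, a subunit of immature synapses that lowers calcium entry and, with GluN1 alone, forms glycine-gated channels. Grin3a (chromosome 4, 49661611 to 49846023) was measured at 35.6, 11.6, 21.7 and 20.6 TPM in Pomc neurons against 8.25 and 2.88 TPM in Npy neurons. Every Pomc library was above both Npy libraries, with Pomc replicate 2 the lowest and Pomc replicate 1 the highest of the group. The log2 fold change was 1.86 ± 0.59 (SE; 95% interval 0.54 to 3.19) and did not pass the threshold (limma unadjusted p = 0.011, adjusted p = 0.426). Over the 15 alternative settings it ranged from 1.24 to 2.49. Relative to Grin1 in the same library, Grin3a was at 0.954 to 1.26 in the Pomc libraries and at 0.348 and 0.128 in the Npy libraries, a ratio that was also chosen with the values known. The gene Ppp3r2 lies within the annotated span of Grin3a and was at or under 4.57 TPM.

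**Figure D3:**
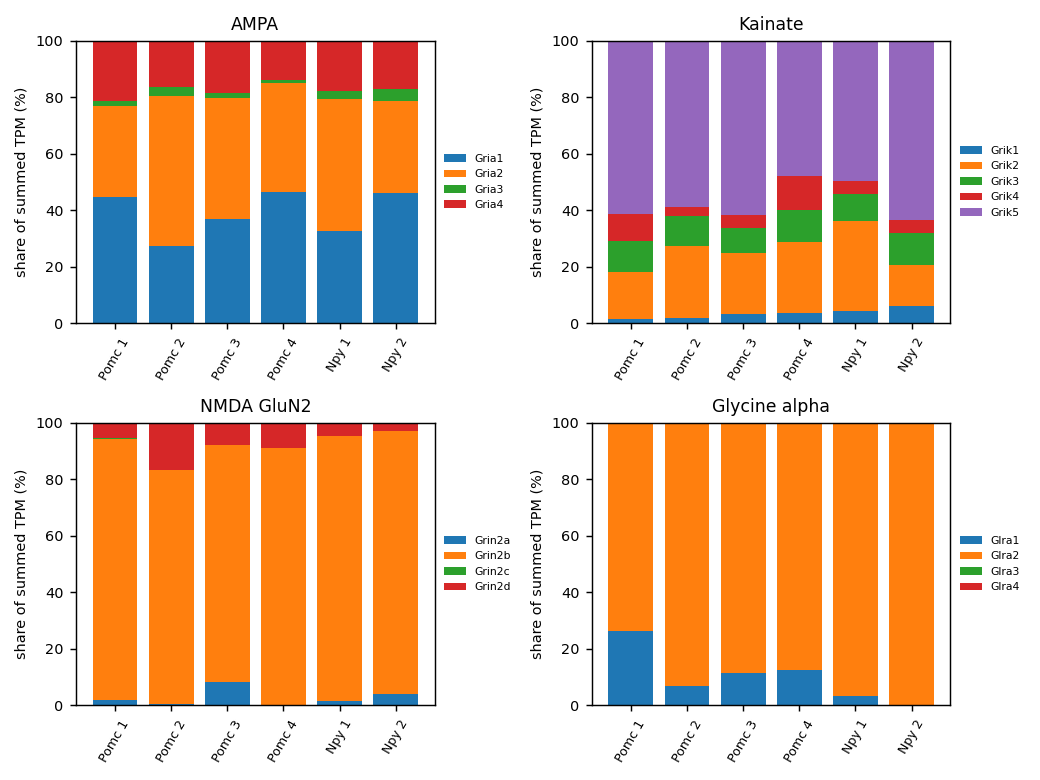
Share of each subunit gene in the summed TPM of its family, in percent, for AMPA, kainate, GluN2 and glycine alpha subunits, with 1 stacked bar per library. Grik5, Grin2b and Glra2 hold the largest share in all 6 libraries, and Gria1 and Gria2 together hold most AMPA transcripts.

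Metabotropic glutamate receptors divide into group I, which raises calcium, and groups II and III, which inhibit transmitter release. Grm5 (chromosome 7, 87583981 to 88135063), the group I receptor of early development, stood at 20.2, 8.95, 16.5 and 23.2 TPM in Pomc neurons against 6.67 and 3.18 TPM in Npy neurons. The groups did not overlap, although Pomc replicate 2 lay close to Npy replicate 1. The log2 fold change was 1.61 ± 0.57 (SE; 95% interval 0.33 to 2.89; limma unadjusted p = 0.0192, adjusted p = 0.546), and it ranged from 1.17 to 2.05 over the 15 alternative settings. Its share of the metabotropic transcripts was 12.4 to 32.7% in Pomc neurons and 9.24 and 6.94% in Npy neurons, also without overlap.

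Grm7, a presynaptic receptor of group III, was the most abundant metabotropic gene in 5 of the 6 libraries. It stood at 32.6, 26.4, 26.1 and 19.7 TPM in Pomc neurons against 37.8 and 22.4 TPM in Npy neurons. Its share of the metabotropic transcripts was 27.8 to 39.6% in Pomc neurons and 52.4 and 48.8% in Npy neurons, without overlap. The share of its group III relative Grm8 did not overlap either, at 5.75 to 11.9% and 16.1 and 14.2%. The levels of both genes overlapped, with Grm8 at 4.08 to 8.53 TPM against 11.6 and 6.52 TPM. Shares within a family depend on each other, so these are not independent of the share of Grm5. Grm4, of group III, stood at 6.92, 15.9, 4.35 and 12.6 TPM against 2.37 and 3.94, without overlap (log2 1.28 ± 0.66, limma adjusted p = 0.76). Grm2, a group II autoreceptor, stood at 2.70, 3.12, 1.89 and 0 TPM against 2.25 and 7.96, and its high value in Npy replicate 2 had no match in Npy replicate 1.

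Upstream sequence is shown for 4 genes that span the range of levels: the abundant Gabbr1, the moderate Grin1, Gabra2, which was at 0 in a single library, and Glra3, which was at 0 in all. Each run is the 250 bases before the RefSeq transcription start (GRCm38.p6), read 5′ to 3′ on the gene's strand, with every CG dinucleotide in capitals. The windows are chr17:37045716-37045965 on the plus strand for Gabbr1, chr2:25319188-25319437 on the minus strand for Grin1, chr5:71095850-71096099 on the minus strand for Gabra2 and chr8:55940168-55940417 on the plus strand for Glra3. None overlaps an annotated GENCODE exon. By sequence, the RefSeq start of Gabbr1, Grin1 and Gabra2 lies at or near the start of a GENCODE transcript of the gene, and for Glra3 no such match was found.
Gabbr1: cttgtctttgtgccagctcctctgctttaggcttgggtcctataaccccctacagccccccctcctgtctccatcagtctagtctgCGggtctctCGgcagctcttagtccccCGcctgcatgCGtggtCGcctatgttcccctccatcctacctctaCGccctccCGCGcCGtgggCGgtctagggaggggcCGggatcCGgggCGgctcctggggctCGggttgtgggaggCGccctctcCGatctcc
Grin1: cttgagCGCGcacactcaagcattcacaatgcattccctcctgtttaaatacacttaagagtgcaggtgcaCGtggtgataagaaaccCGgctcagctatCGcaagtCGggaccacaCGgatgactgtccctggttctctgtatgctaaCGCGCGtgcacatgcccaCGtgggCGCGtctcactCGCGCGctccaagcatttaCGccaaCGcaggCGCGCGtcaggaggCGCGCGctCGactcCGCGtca
Gabra2: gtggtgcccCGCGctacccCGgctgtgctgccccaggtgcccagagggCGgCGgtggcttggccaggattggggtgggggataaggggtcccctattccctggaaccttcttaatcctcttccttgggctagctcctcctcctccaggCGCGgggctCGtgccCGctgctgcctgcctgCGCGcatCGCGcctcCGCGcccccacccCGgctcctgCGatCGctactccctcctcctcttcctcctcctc
Glra3: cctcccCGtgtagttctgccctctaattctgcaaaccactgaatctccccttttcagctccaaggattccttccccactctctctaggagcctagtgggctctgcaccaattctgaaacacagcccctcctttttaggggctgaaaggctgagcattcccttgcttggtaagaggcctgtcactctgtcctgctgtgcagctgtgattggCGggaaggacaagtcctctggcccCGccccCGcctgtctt
The window of Grin1 held 27 CG dinucleotides, that of Gabra2 18, that of Gabbr1 16 and that of Glra3 4. Among all 32851 windows of this length in the table, the median was 6, and 8.56, 21.7, 25.4 and 62.2% held at least as many as these 4 in that order. Windows were found for 32 of the 48 genes, too few for a summary over them, so the counts are a description of these 4 alone.

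Most receptor genes were lower in Npy replicate 2 than in Npy replicate 1. Of the 41 tested, 35 (85.4%) lay lower there, against 58.7% of all tested genes, and the median difference was -0.73 on log2(TPM + 1) against -0.16. Summed over the 48 genes, Npy replicate 1 held 2058 TPM and Npy replicate 2 held 1287 TPM, the highest and the lowest of the 6 libraries, with 1584 to 1820 TPM in the Pomc libraries. The same difference ran with the genomic span of genes. Its median was 0 in 3506 genes under 10 kb, -0.05 in 4019 genes of 10 to 30 kb, -0.24 in 3539 genes of 30 to 100 kb, -0.37 in 1481 genes of 100 to 300 kb and -0.72 in 486 genes over 300 kb. Receptor genes are long, with a median span of 224 kb against 23.4 kb over all tested genes. Their own median difference was -0.07 in 5 genes of 10 to 30 kb and -0.48 in 9 genes of 30 to 100 kb. It was -0.84 in 11 genes of 100 to 300 kb and -0.89 in 16 genes over 300 kb. Whether span accounts for the receptor values was not tested. The median log2 fold change of the 41 genes was 0.56 without Npy replicate 1 (0.10 over all tested genes) and -0.33 without Npy replicate 2 (-0.08 over all tested genes). Grin3a, Glra2, Grm5 and Glra1 had log2 fold changes of 1.24, 1.08, 1.17 and 1.70 without Npy replicate 2. Without Npy replicate 1 these were 2.49, 1.82, 2.05 and 2.13.

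**Figure D4:**
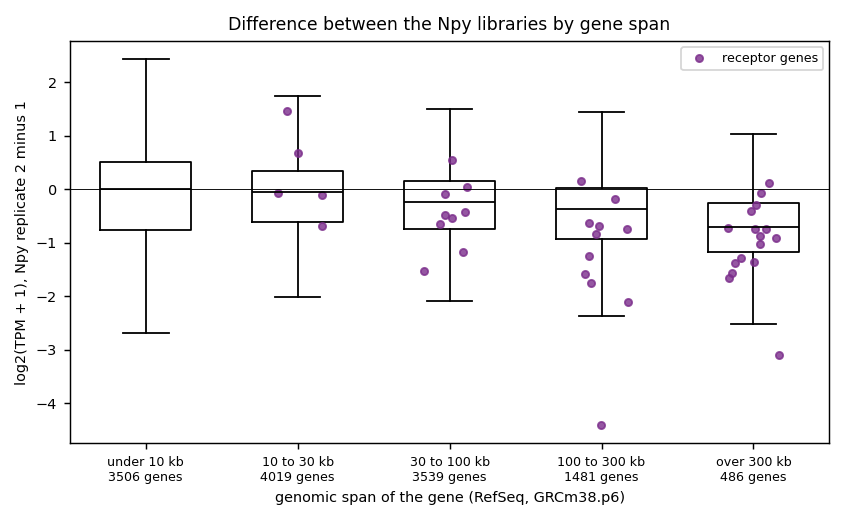
Difference between Npy replicate 2 and Npy replicate 1 on log2(TPM + 1), by the genomic span of the gene in RefSeq. Boxes show the quartiles and median of all tested genes of each class, whiskers reach 1.5 times the box height, values beyond are not drawn, and purple points are the tested receptor genes, most of which lie below 0 in the classes over 30 kb.

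Genes that supply, anchor and modify these receptors were read in the same fit, from 7 lists of 115 genes in all. Of 110 tested, 2 passed an adjusted p of 0.05 by limma, both higher in Pomc neurons (0.412% of all tested genes passed, 0.289% in this direction), and 19 had an unadjusted p below 0.05, 10 higher in the Pomc and 9 in the Npy libraries (background 7.36%). The 2 genes were Nptx2 and Slc17a6.

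Nptx2, a secreted pentraxin that clusters AMPA receptors, stood at 165, 103, 115 and 122.6 TPM in Pomc neurons against 4.35 and 21.3 TPM in Npy neurons. Every Pomc library was well above both Npy libraries, and the log2 fold change was 3.52 ± 0.49 (limma adjusted p = 0.0188). The call ended without Pomc replicate 1, 2 or 3 (adjusted p = 0.0765, 0.0512 and 0.0602 by limma), with no filter on low values (0.0848), with a single prior variance in place of the trend (0.117) and with replicate number as a block (0.138). The log2 fold change was 2.49 without Npy replicate 1 and 4.55 without Npy replicate 2. Cnih3, a cornichon subunit of AMPA receptors, stood at 15.6, 4.40, 10.6 and 9.95 TPM against 2.69 and 0.503 and did not pass (log2 2.13 ± 0.70, limma adjusted p = 0.467). On this list of AMPA and kainate receptor auxiliary genes 1 of 23 tested passed, and 6 had an unadjusted p below 0.05.

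Slc17a6, the vesicular glutamate transporter VGLUT2, was the 1 of 14 supply and uptake genes to pass, at 62.0, 57.3, 67.0 and 55.9 TPM in Pomc neurons against 5.85 and 1.43 TPM in Npy neurons. Its log2 fold change of 3.91 ± 0.45 passed under 14 of the 15 alternatives (limma adjusted p = 0.0066; 0.0667 with a replicate block). It was 4.66 without Npy replicate 1 and 3.17 without Npy replicate 2. Slc32a1, the vesicular transporter for GABA and glycine, lay the other way without passing, at 48.1, 70.2, 46.8 and 26.9 TPM in the Pomc libraries against 124 and 160 TPM (log2 -1.61 ± 0.35, limma adjusted p = 0.151). The summed ventromedial markers moved with the first gene, and Sst, Ghrh and the oligodendrocyte precursor markers with the second; their part in both differences was not tested.

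On the list of inhibitory synapse scaffold and trafficking genes, 0 of 19 tested passed by limma and 2 had an unadjusted p below 0.05. Mdga1, which restrains neuroligin 2 at inhibitory synapses, stood at 13.1, 10.7, 17.0 and 6.09 TPM in Pomc neurons against 61.1 and 59.0 TPM in Npy neurons (log2 -2.34 ± 0.45, limma adjusted p = 0.0967). Both Npy libraries were far above the Pomc range. Plcl1, a phospholipase-like protein of GABA-A receptor trafficking, lay the other way, at 37.8 to 65.7 TPM against 31.1 and 19.3.

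Among 13 chloride transporter and kinase genes, 0 passed by limma and 1, Slc12a5, had an unadjusted p below 0.05. Slc12a5, which encodes the chloride extruder KCC2, stood at 69.6, 46.7, 64.7 and 61.2 TPM in Pomc neurons against 141 and 111 TPM in Npy neurons, with a log2 fold change of -1.05 ± 0.24 (limma adjusted p = 0.178). Slc12a2, the chloride importer NKCC1, named here after its values were seen, stood at 19.5, 21.3, 24.9 and 28.9 TPM against 26.0 and 14.4. The ratio of Slc12a5 to Slc12a2 was 2.12 to 3.58 in the Pomc libraries and 5.41 and 7.69 in the Npy libraries, so it did not overlap. Slc12a4 was low, at 0 to 2.86 TPM against 3.63 and 3.58.

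The excitatory scaffold and signalling list held 30 tested genes, of which 0 passed by limma and 5 had an unadjusted p below 0.05. Cbln1, a cerebellin that links neurexins to delta receptors, stood at 196, 56.1, 103 and 111 TPM in Pomc neurons against 26.7 and 18.2 TPM in Npy neurons (log2 2.21 ± 0.43, limma adjusted p = 0.0967). Cbln1 passed in 3 of the 15 alternatives, with limma adjusted p = 0.0462 rescaled without short RNAs, 0.0222 with all 7 columns and 0.037 without Pomc replicate 2, and the adjusted p ranged up to 0.788, without Npy replicate 2. Dlg2, the scaffold PSD-93 of NMDA receptors, stood at 16.0, 11.4, 19.8 and 16.7 TPM against 58.2 and 38.4 (log2 -1.53 ± 0.38, limma adjusted p = 0.251). In both genes the groups did not overlap, with the Pomc libraries higher in the first and the Npy libraries in the second.

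Among 8 GABA-B auxiliary and effector genes, 0 passed by limma and 1, Kcnj3, had an unadjusted p below 0.05. Kcnj3 and Kcnj5 encode subunits of the potassium channels that GABA-B receptors open. Kcnj3 stood at 34.3, 16.3, 24.0 and 12.5 TPM in Pomc neurons against 7.50 and 8.57 TPM in Npy neurons, and Kcnj5 at 5.04 to 19.6 TPM against 3.64 and 2.65. Both had every Pomc library above both Npy libraries. Of the 3 genes of the ADAR family, which includes the editors of glutamate receptor transcripts, 0 passed by limma and 0 had an unadjusted p below 0.05. Adarb1, which edits Gria2, stood at 4.33 to 13.4 TPM against 16.1 and 8.44, and Adarb2, whose product has no known editing activity, at 1.22 to 3.59 TPM against 7.10 and 4.41.

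**Figure D5:**
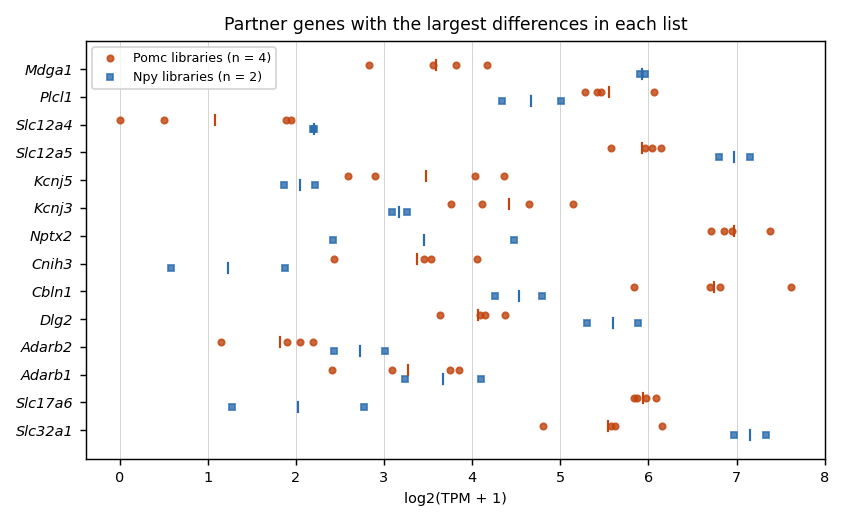
Level on log2(TPM + 1) of the partner genes with the largest log2 fold changes in each of the 7 lists, with circles for the 4 Pomc libraries, squares for the 2 Npy libraries and short lines for the group means on this scale. Nptx2 and Slc17a6 passed the threshold, and Slc32a1, Slc12a5, Mdga1 and Dlg2 have both Npy squares to the right of every Pomc circle.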

How the data were processed

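The authors deposited 1 table of 18335 rows with 7 sample columns and no stated unit; the values deposited were taken as TPM because the 6 columns used sum to 999932 to 999960 and do not step as CPM of whole reads would: of the values under 50 times a library's smallest, 1.31 to 3.35% were whole multiples of it (within 0.01), and its 500 lowest held 487 to 494 distinct values. The smallest value was 0.00655 to 0.0292 among genes with over 10000 exonic bases (GENCODE vM21) and 0.0550 to 0.171 among those under 500. This does not show which length was used. The submitters' processing notes name HISAT2, mm10 and edgeR 3.8, with no role or order, and no source used here gives the counter, annotation, length definition or use of strand. The 4 rows of repeated symbols were left out. The column of Npy replicate 3 was left out because it equals the mean of the other 2 times a whole percent, to within 0.0001, in every gene above 0 there (in 60 other sets of columns at most 0.00724% of genes did so).

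Genes at 1 TPM or more in at least 2 libraries were tested, Pomc against Npy, on log2(TPM + 1) with limma 3.58.1 in R 4.3.3, prior variance following mean expression, two-sided, Benjamini-Hochberg over all 13845 genes, threshold 0.05. Fold changes on this scale understate those of low genes. There were 15 alternatives, of pseudocount, filter, variance prior, scaling (TMM computed directly on TPM), all 7 columns, a replicate block and each library left out. Coordinates and upstream sequences are from RefSeq, GRCm38.p6. Shares and ratios were taken within a library and not tested. The members and lists were chosen with earlier results of these data known. Named were members past the threshold, the 10 largest fold changes, the 2 most abundant genes of each family, and members without overlap and an absolute log2 fold change of at least 1; for partner genes, those past the threshold and the 2 largest of each list. Some receptor genes are counted in the totals and not reported here by name.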

Additional observations from a re-analysis of the deposited data

Results flagged for a closer look

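In each named receptor gene, the gap between the highest or lowest Pomc library and the nearest other was set against the range of the 4 Pomc libraries. Of 31 genes checked, 1 stood out, where chance gives about 1 in 20. Gabrr2, a rho subunit, was at 1.29 TPM in Pomc replicate 1 and listed at 0 in the other 3 Pomc libraries, so that any value above 0 stands out and the gap shows nothing about the library.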

How the results depend on the processing

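No receptor gene passed under any of the 15 alternatives by limma. Their count at an unadjusted p below 0.05 was 4 in the reported fit, with either other pseudocount and with no filter on low values. It moved when an Npy library was left out. Without either Npy library, the lone Npy library is assumed to vary like the Pomc group. The median log2 fold change of the tested receptor genes was 0.03, and without 1 library in turn it ran from -0.33 to 0.56, both ends set by the Npy libraries. Over all genes, the count past the threshold was 57, of which 40 higher in Pomc neurons (42 and 21 with 1 prior variance); it was 37 with a pseudocount of 0.1, 33 with no filter on low values, 205 with all 7 columns and 22 to 69 without 1 library. Of the partner genes, 2 passed; 1 passed with no filter and with 1 prior variance, 3 rescaled without short RNAs, 10 with all 7 columns and 1 to 2 without 1 library. With a replicate block, 12 genes in all and 0 partner genes passed. The column of Npy replicate 3 adds no measurement of its own to the fit with 7 columns. Replicate numbers do not pair these samples by any label, and deviations of same-numbered libraries correlated at -0.0436 for number 1 and -0.0334 for number 2. The deviations of the 2 Npy libraries from their own mean are mirror images, so these values cannot show or exclude pairing. Why Nptx2 lost its call under several settings was not tested. TPM keeps no depth, so how far depth limits the low genes is not known.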
